A study of Mus musculus with 6 samples.

Results

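The 10 genes described here encode receptors through which marginal zone B cells find and keep their place in the spleen: the sphingosine 1-phosphate (S1P) receptor genes S1pr1, S1pr3 and S1pr4, the endocannabinoid receptor gene Cnr2, the chemokine receptor genes Cxcr4, Cxcr5, Ccr6 and Ccr7, the oxysterol receptor gene Gpr183 and the atypical chemokine receptor gene Ackr2. They form a hand-picked set, not a random draw of genes, and all 10 were found by Ensembl identifier among the 14864 genes of the deposited table, through the symbols of GENCODE M21. Each also passed the filter on low values (a mean of at least 10). RNA came from marginal zone B cells that had been flow-sorted from the spleens of C57BL/6 mice aged 8 weeks. There were 3 libraries of genotype WT and 3 of genotype CK2[alpha]-cKO, a conditional knockout of the catalytic α subunit of the kinase CK2, called cKO below. The sources used here name no Cre line, no cell type in which it acts, no deleted exon and no sort gate. Nor do they tie libraries to mice. The p-values therefore set each difference against the scatter of these libraries within a genotype, and that scatter may be technical.

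Marginal zone B cells lie at the edge of the white pulp, where blood leaves its vessels, and they shuttle between this zone and the B cell follicle. S1P, which is abundant in blood, holds them in the marginal zone through S1PR1 and S1PR3, against the pull of the follicular chemokine CXCL13 on CXCR5. CB2, the product of Cnr2, also helps to keep them there, while CCR7 draws lymphocytes to the T cell zone, CXCR4 draws them towards CXCL12 and GPR183 guides B cells along gradients of oxysterols. All of these couple to G proteins, whereas ACKR2 binds inflammatory CC chemokines and degrades them without G protein signalling.

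In the cKO libraries Cxcr4, Ccr6, Ccr7 and Gpr183 fell, and Ackr2 rose. The ratio of cKO to WT was 0.696 for Cxcr4, 0.722 for Ccr6, 0.685 for Ccr7, 0.759 for Gpr183 and 1.61 for Ackr2. No difference was called for S1pr1, S1pr3, S1pr4, Cnr2 and Cxcr5. So 1 of the 10 genes rose and 4 fell, where 10.1% of the 14855 genes tested were called in either direction, 5.08% higher and 4.97% lower (limma, Benjamini-Hochberg adjusted p under 0.05). On recovered reads edgeR called 1 receptor gene higher and 3 lower where it called 9.92% of all genes, and DESeq2 called 2 higher and 2 lower where it called 11.0%. Because the set was hand-picked, these shares are a description and no test of it. The median log2 difference was -0.14 over the 10 receptor genes and -0.00086 over all genes tested.

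Promoter sequence is shown for Cxcr4 and Gpr183, which fell, and Ackr2, which rose. The RefSeq table had entries for 7 of the 10 genes, among them 2 for Ccr6, which also fell and is described after the sequences. Each is the 250 bases before the transcription start, 5′ to 3′ on the gene's strand, in build GRCm38.p6: Cxcr4 on the minus strand at chr1:128592300-128592549, Gpr183 on the minus strand at chr14:121965194-121965443 and Ackr2 on the plus strand at chr9:121898105-121898354. Capitals mark CACCC, the core that Krüppel-like factors such as KLF2 bind, or its complement GGGTG.
Cxcr4: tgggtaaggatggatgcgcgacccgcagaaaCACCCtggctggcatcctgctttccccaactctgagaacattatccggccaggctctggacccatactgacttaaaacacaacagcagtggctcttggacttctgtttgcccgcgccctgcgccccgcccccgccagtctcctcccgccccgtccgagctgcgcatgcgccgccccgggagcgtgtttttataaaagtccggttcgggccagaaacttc
Gpr183: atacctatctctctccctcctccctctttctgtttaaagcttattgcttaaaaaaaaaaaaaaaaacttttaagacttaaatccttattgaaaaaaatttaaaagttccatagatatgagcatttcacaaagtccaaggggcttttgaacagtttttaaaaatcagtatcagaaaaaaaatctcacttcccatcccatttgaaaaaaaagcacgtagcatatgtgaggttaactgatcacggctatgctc
Ackr2: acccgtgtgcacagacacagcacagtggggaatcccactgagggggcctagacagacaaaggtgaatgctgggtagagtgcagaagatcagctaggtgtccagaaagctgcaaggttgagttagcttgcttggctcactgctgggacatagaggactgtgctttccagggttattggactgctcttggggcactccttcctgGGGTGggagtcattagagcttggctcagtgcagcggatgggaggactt
CACCC was present 1 time in the window of Cxcr4, which fell, 1 time in that of Ackr2, which rose, and 0 times in that of Gpr183. For receptor genes that were not called, it was present 2 times for S1pr3, 1 time for S1pr4 and 0 times in either window of Cnr2. Among all 32851 promoter windows of this length, 52.0% held it on either strand. TGGGAA, the core that the Notch effector RBPJ binds, was present 1 time in the window of Gpr183 and 0 times in those of Cxcr4 and Ackr2, against 21.6% of all windows. The motifs TGANTCA of AP-1 factors and GTAAACA of FOXO factors, and that of NF-κB factors (GGG and TTCC with any 3 bases between them), had 0 matches in the 3 windows, against 6.75%, 3.17% and 4.65% of all windows. Of the 2 windows of Ccr6, the first held 0 matches to any of these motifs. The second held 1 match to TGGGAA, 1 to the NF-κB motif and 0 to the others. Its match to TGGGAA, on the other strand, and its NF-κB match overlap and share the letters TTCC. In the 3 windows shown no match overlaps another, and a match is a run of letters, not a bound site.

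The values below are the deposited normalised read counts, read counts divided by a factor for each library, at 18778776 to 23503756 recovered reads per library. A log2 difference is that of cKO from WT after 1 was added to each value, and ± is the SD over 3 libraries for a level and the standard error for a log2 difference. Csnk2a1, which encodes CK2α, was no lower in libraries labelled cKO than in WT (3957 ± 105 in WT and 4045 ± 87.6 in cKO, adjusted p = 0.734). Reads summed over a whole gene cannot show the loss of one exon, and the directions below rest on the labels. Of 13 marginal zone B cell markers 7 rose and 1 fell, and Cr2, which encodes the complement receptor CD21 that is abundant on these cells, stood at 65811 ± 2121 in WT and 69586 ± 8713 in cKO. Of 5 follicular B cell markers 3 fell and 0 rose. Their levels summed to between 44289.9 and 48725 in WT. The sum was 29042 in cKO replicate 1 and 29834 in cKO replicate 3, but 45335, inside the WT range, in cKO replicate 2. The T cell receptor and CD3 genes of the T and NK marker list are not among the genes measured here. Of its 5 measured members 1 fell and 0 rose, with sums of 736 to 822 in WT and 393 to 560.04 in cKO. Of the 8 measured erythroid and platelet markers 0 were called, with sums of 736 to 11181 in WT and 845 to 5069 in cKO. Of 9 B1 and plasma cell markers 2 fell and 0 rose, with sums of 9833 to 14308 in WT and 7904 to 9411 in cKO, and of 15 myeloid markers 0 were called, with sums of 1694 to 2347 and 1618 to 2475. Of 5 measured stromal and endothelial markers 1 rose and 0 fell, with sums of 4430 to 5286 in WT and 4441 to 5491 in cKO. The part of any other cell type in the results below was not tested, and in sorted bulk cells fewer cells of a type and less RNA per cell cannot be told apart.

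The S1P receptor genes, whose products hold these cells in the marginal zone, did not pass the test. S1pr1 (ENSMUSG00000045092) stood at 8977, 8485 and 11467 normalised reads in the WT libraries and at 9764, 8978 and 11732 in the cKO libraries, each in the order of replicates 1, 2 and 3, which is kept below. The groups overlapped, with replicate 3 the highest and replicate 2 the lowest in both. The ratio of cKO to WT was 1.06 (95% interval 0.884 to 1.26), a log2 difference of 0.08 ± 0.12 (adjusted p = 0.715). Its direction turned without WT replicate 2 (-0.0074) and without cKO replicate 3 (-0.030). S1pr3 (ENSMUSG00000067586), which acts beside S1PR1 in the response of these cells to S1P, stood at 5148, 4039.6 and 5798 in WT and at 4731, 4025 and 5532 in cKO. Here too the groups overlapped, and the order of the libraries was the same as for S1pr1 within each group. A stretch of 45 bp of its exons overlaps a long noncoding RNA gene, Gm32834, on the other strand. Its ratio was 0.956 (0.782 to 1.17; adjusted p = 0.798), and its log2 difference went from -0.06 to 0.05 without WT replicate 3 or without cKO replicate 2.

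S1pr4 (ENSMUSG00000044199), a lymphocyte S1P receptor with less effect on egress, was at 1278, 1315 and 1205 in WT and at 950.3, 1424 and 1019 in cKO. In cKO replicates 1 and 3 it was below all WT libraries and in cKO replicate 2 above all of them. The ratio was 0.880 (95% interval 0.728 to 1.06; adjusted p = 0.373). Without cKO replicate 2 the log2 difference was -0.36 and passed the test (adjusted p = 0.00949). Cnr2 (ENSMUSG00000062585) was at 5005, 5673 and 5452 in WT and at 4517, 5609 and 5054 in cKO. The groups overlapped, with cKO replicate 1 lowest and cKO replicates 2 and 3 inside the WT range. Its ratio was 0.939 (0.832 to 1.06; adjusted p = 0.498).

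**Figure D1:**
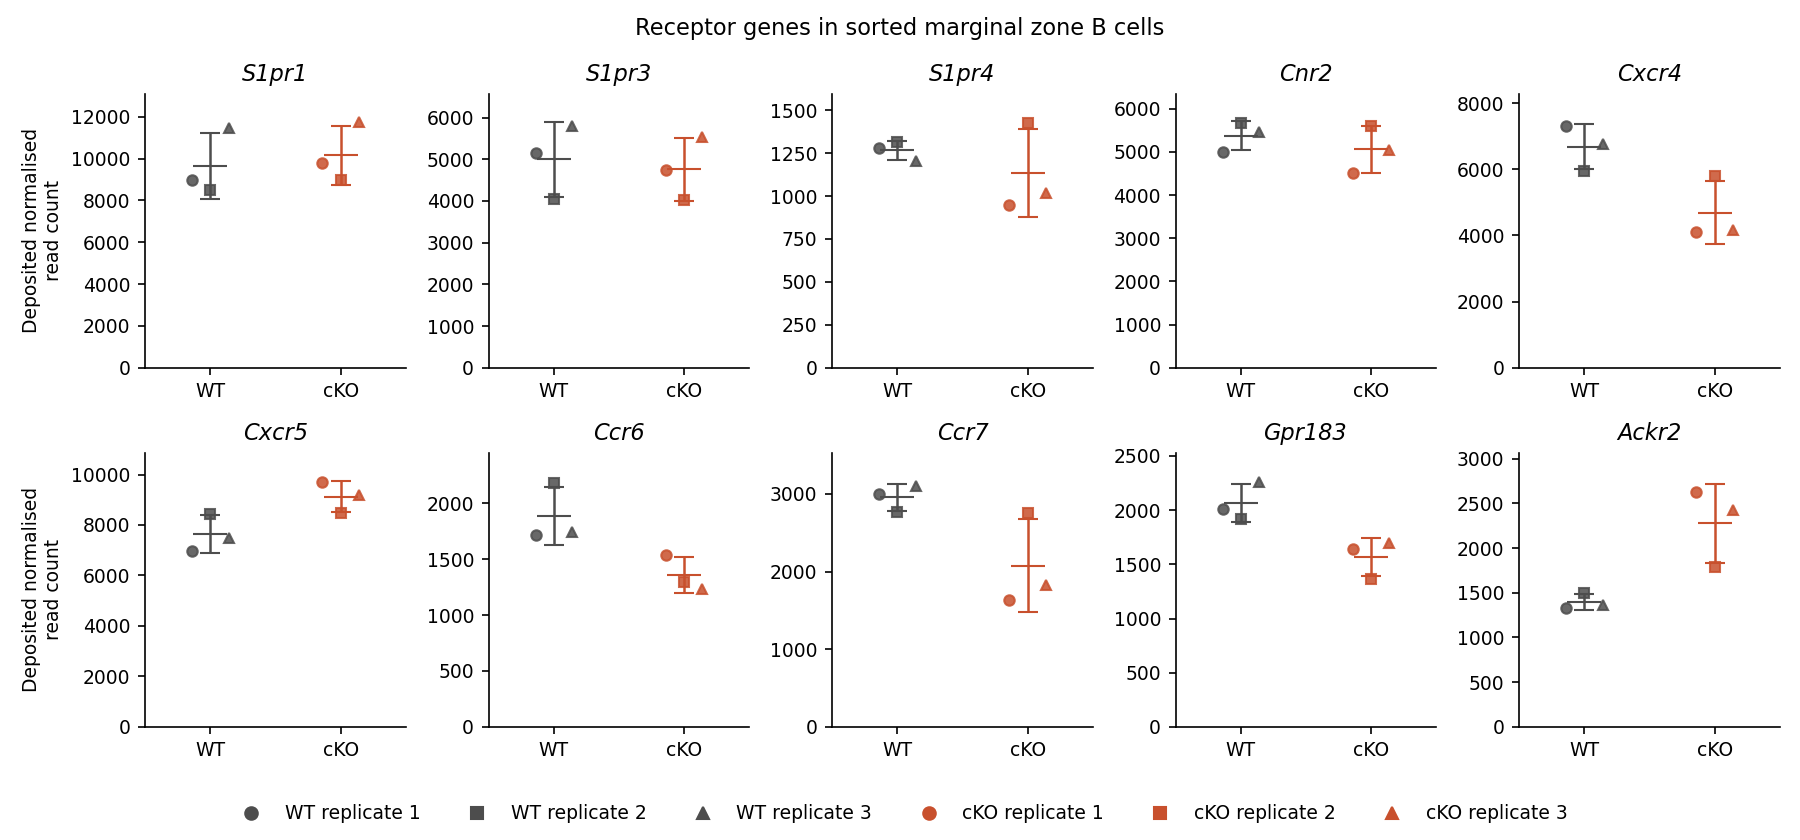
Deposited normalised read count (y axis, from 0) of each receptor gene in the WT and cKO libraries. Points are libraries, with shape for the replicate number, and bars are the mean and SD over 3 libraries. The groups do not overlap for Cxcr4, Cxcr5, Ccr6, Ccr7, Gpr183 and Ackr2, and cKO replicate 2 (orange square) is close to the WT libraries for Ccr7 (2758 against 2771 in WT replicate 2) and Cxcr5 (8460.4 against 8445).

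Among the chemokine receptor genes, Cxcr5, whose product draws B cells into follicles, was higher in all cKO libraries but missed the threshold. Cxcr5 (ENSMUSG00000047880) was at 6978, 8445 and 7469 in WT and at 9693, 8460.4 and 9198 in cKO. The groups did not overlap, but cKO replicate 2 and WT replicate 2 were closer than counting error, with 95% Poisson intervals of 8286 to 8638 and 8261 to 8632. The ratio was 1.197 (95% interval 1.07 to 1.34), a log2 difference of 0.26 ± 0.08 (adjusted p = 0.0547). It passed without WT replicate 2 (adjusted p = 0.02575), without cKO replicate 2 (0.0273), with robust moderation (0.0420) and with DESeq2 (0.0179), over a range of 0.0179 to 0.183 in all alternatives. A stretch of 110 bp of its 3332 bp of exon overlaps Bcl9l on the other strand, and no strand setting is given, so reads there cannot be assigned.

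Cxcr4 (ENSMUSG00000045382), the receptor for CXCL12, fell. It was at 7314, 5959 and 6749 normalised reads in WT and at 4118, 5787 and 4152 in cKO. The groups did not overlap, with cKO replicates 1 and 3 close together and cKO replicate 2 just under the lowest WT library. The ratio was 0.696 (95% interval 0.579 to 0.836), and the log2 difference -0.52 ± 0.12 (adjusted p = 0.0232). The call was lost without WT replicate 1 (0.1025), WT replicate 3 (0.0859), cKO replicate 1 (0.0561) or cKO replicate 3 (0.0899), with robust moderation (0.0955) and with DESeq2 (0.0577).

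Ccr7 (ENSMUSG00000037944), the receptor for the T zone chemokines CCL19 and CCL21, also fell, with a wide spread among the cKO libraries. It was at 2993, 2771 and 3108 in WT and at 1638, 2758 and 1832 in cKO. In cKO replicates 1 and 3 it lay far below every WT library, whereas cKO replicate 2 fell short of WT replicate 2 by less than counting error (95% Poisson intervals of 2658 to 2860.0 and 2666 to 2879). The ratio was 0.685 (95% interval 0.545 to 0.860), and the log2 difference -0.55 ± 0.15 (adjusted p = 0.0436). The call was lost on leaving out any library other than cKO replicate 2, with adjusted p between 0.0675 and 0.141, and with edgeR (0.0597), DESeq2 (0.175) and robust moderation (0.194). Without cKO replicate 2 the log2 difference was -0.77. Both Ccr7 and Cxcr4 were highest, among the cKO libraries, in the library with the follicular markers in the WT range, and the part of such cells in these results was not tested.

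Ccr6 (ENSMUSG00000040899), the receptor for CCL20, fell in a different pattern. It was at 1719.6, 2180.5 and 1745 in WT and at 1541, 1296 and 1234 in cKO. The groups did not overlap, the highest WT library was replicate 2, and the cKO library nearest to WT was replicate 1. The ratio was 0.722 (95% interval 0.617 to 0.846), and the log2 difference -0.47 ± 0.10 (adjusted p = 0.0201). The call was lost without cKO replicate 3 (adjusted p = 0.0781).

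Gpr183 (ENSMUSG00000051212), also called EBI2, which moves activated B cells to the outer follicle, was at 2015, 1919 and 2257 in WT and at 1643, 1367 and 1699 in cKO. Here cKO replicate 2 was the library farthest from WT, the reverse of Cxcr4 and Ccr7. The ratio was 0.759 (95% interval 0.663 to 0.869), and the log2 difference -0.40 ± 0.09 (adjusted p = 0.0210). The call was lost without WT replicate 1 (0.0675) or WT replicate 3 (0.0909). Gpr183 lies in an intron of Ubac2 on the other strand.

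Ackr2 (ENSMUSG00000044534), the scavenger of inflammatory CC chemokines that innate-like B cells of the mouse are known to express, was the receptor gene that rose. It was at 1329.8, 1495 and 1368 normalised reads in WT and at 2626, 1782 and 2424 in cKO. The groups did not overlap and the WT libraries were close together, while cKO replicate 2 was nearest to them. The 13 marginal zone B cell markers summed to 141446 to 149382 in WT and to 177269, 147112 and 174221 in cKO. Replicate 2 was again the cKO library nearest to WT. Cr2, which was not called, was the largest part of each sum, at 64330 to 68241 in WT. In cKO it was at 76108, 59691 and 72960, with replicate 2 below every WT library. The part of the marker difference in the result for Ackr2 was not tested. The stromal and endothelial marker that rose was Prox1, the gene of a transcription factor that defines lymphatic endothelium, where Ackr2 is also known to be expressed. It is named because its value stood out once seen. Prox1 was at 13.2, 13.7 and 16.6 normalised reads in WT and at 119, 118 and 126 in cKO, a log2 difference of 2.98 ± 0.21 (adjusted p = 0.000109). It was high in every cKO library alike, whereas Ackr2 was lower in cKO replicate 2 than in the other two. The endothelial gene Cdh5 was at 52.0 ± 11.8 in WT and 66.4 ± 5.35 in cKO and was not called (adjusted p = 0.294), and Lyve1, another lymphatic endothelial marker, is not among the genes tested. The part of such cells in the rise of Ackr2 was not tested. The ratio was 1.61 (95% interval 1.34 to 1.93), and the log2 difference 0.69 ± 0.12 (adjusted p = 0.00736). It was called in all 16 alternatives, with log2 differences of 0.57 to 0.85 and adjusted p of at most 0.0419.

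**Figure D2:**
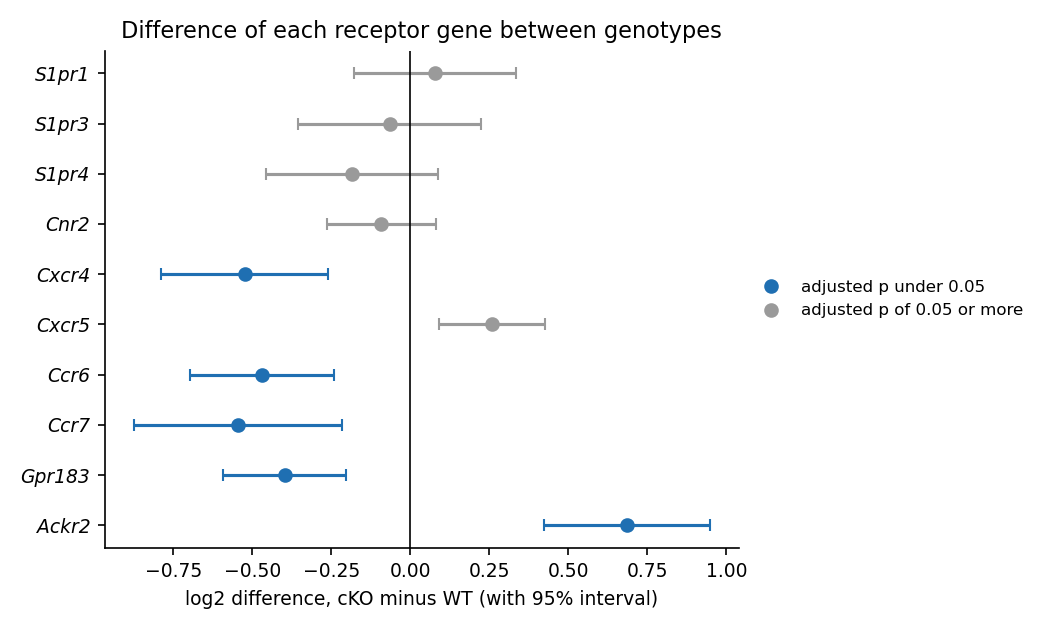
Log2 difference of each receptor gene, cKO minus WT (x axis, from log2(value + 1)), with its 95% interval from limma. Blue marks adjusted p under 0.05: Cxcr4, Ccr6, Ccr7 and Gpr183 lie between -0.55 and -0.40 and Ackr2 at 0.69, while the intervals of S1pr1, S1pr3, S1pr4 and Cnr2 hold 0.

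All cKO libraries lay on one side of all WT libraries for 6 of the 10 receptor genes, against 31.6% of all genes tested. For 6 of the 10, not all the same ones, the cKO library nearest to the WT mean was replicate 2 (S1pr4, Cnr2, Cxcr4, Cxcr5, Ccr7 and Ackr2), as it was for 38.0% of the genes tested and 51.5% of the called genes. On the log2 scale, Ccr7 lay -0.85, -0.10 and -0.69 from the WT mean in cKO replicates 1, 2 and 3, Cxcr4 lay -0.69, -0.20 and -0.68 from it, and Ackr2 lay 0.91, 0.35 and 0.80 from it. The order was another for Gpr183, at -0.33, -0.59 and -0.28, and for Ccr6, at -0.28, -0.53 and -0.60. Without cKO replicate 2, 2 receptor genes rose (Ackr2 and Cxcr5) and 5 fell (Cxcr4, Ccr6, Ccr7, Gpr183 and S1pr4). Calls over all genes went up as well, to 1725 against 1494 with every library in.

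**Figure D3:**
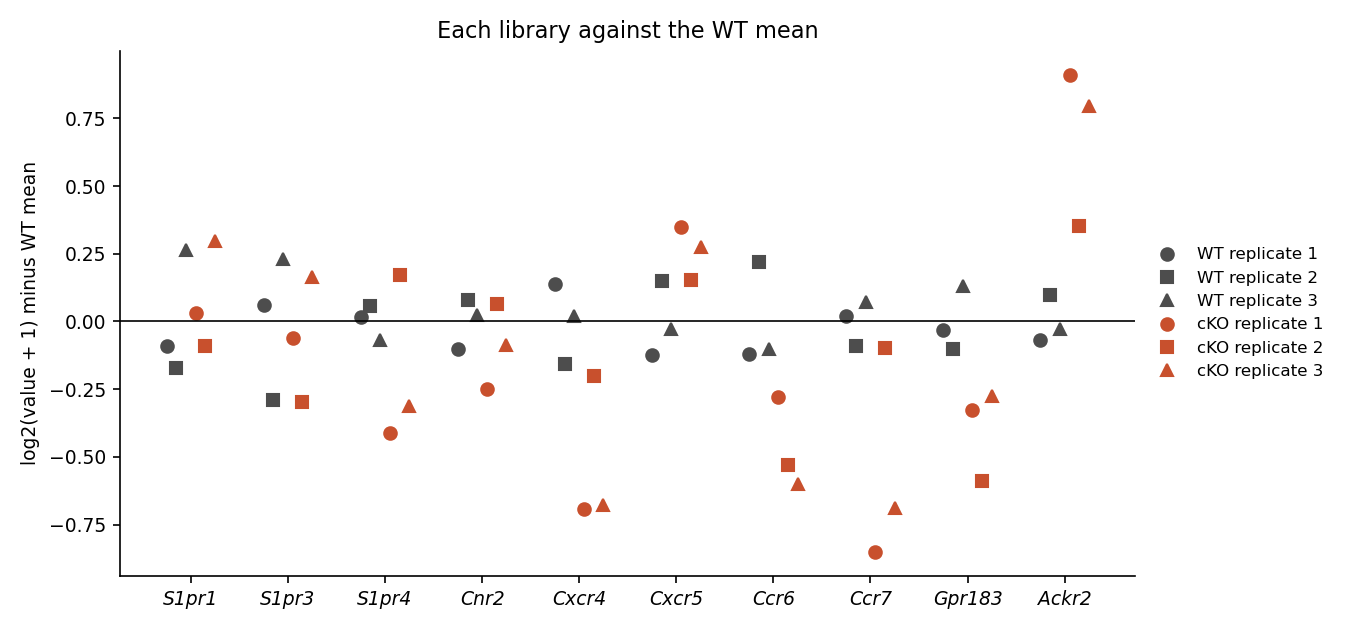
Distance of each library from the WT mean (y axis, log2(value + 1)) for each receptor gene (x axis). Shape is the replicate number. Orange squares (cKO replicate 2) stay closer to 0 than the other cKO libraries for Cxcr4, Cxcr5, Ccr7 and Ackr2 and lie farthest from 0 for Gpr183.

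Ratios within a library, which do not depend on how libraries were scaled, set receptors for other sites against Cxcr5. The ratio of Cxcr4 to Cxcr5 was 1.05, 0.706 and 0.904 in WT and 0.425, 0.684 and 0.451 in cKO. The ratio of Ccr7 to Cxcr5 was 0.429, 0.328 and 0.416 in WT and 0.169, 0.326 and 0.199 in cKO. In both the groups did not overlap, with cKO replicate 2 next to WT replicate 2. This was fixed by the genes taken singly and adds nothing to them. Every cKO library was above all WT libraries for Cxcr5 and below them for Cxcr4 and Ccr7. The ratio of Cnr2 to Cxcr5 was 0.717, 0.672 and 0.730 in WT and 0.466, 0.663 and 0.5495 in cKO, also without overlap, although Cnr2 itself was not called. The S1P receptor genes summed to 2.21, 1.64 and 2.47 times Cxcr5 in WT and to 1.59, 1.71 and 1.99 times in cKO, with overlap. The log2 differences of these ratios were -0.78, -0.81, -0.35 and -0.24. Two-sided exact permutation tests gave p = 0.1 for Cxcr4, Ccr7 and Cnr2, the smallest that 3 against 3 libraries allow, and p = 0.3 for the S1P receptors (0.133 and 0.3 adjusted over the 4 ratios), so none could pass the threshold. For Cxcr4 and Ccr7 the p of 0.1 was likewise fixed by the genes taken singly. All 4 ratios share Cxcr5, so they are not separate results.

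**Figure D4:**
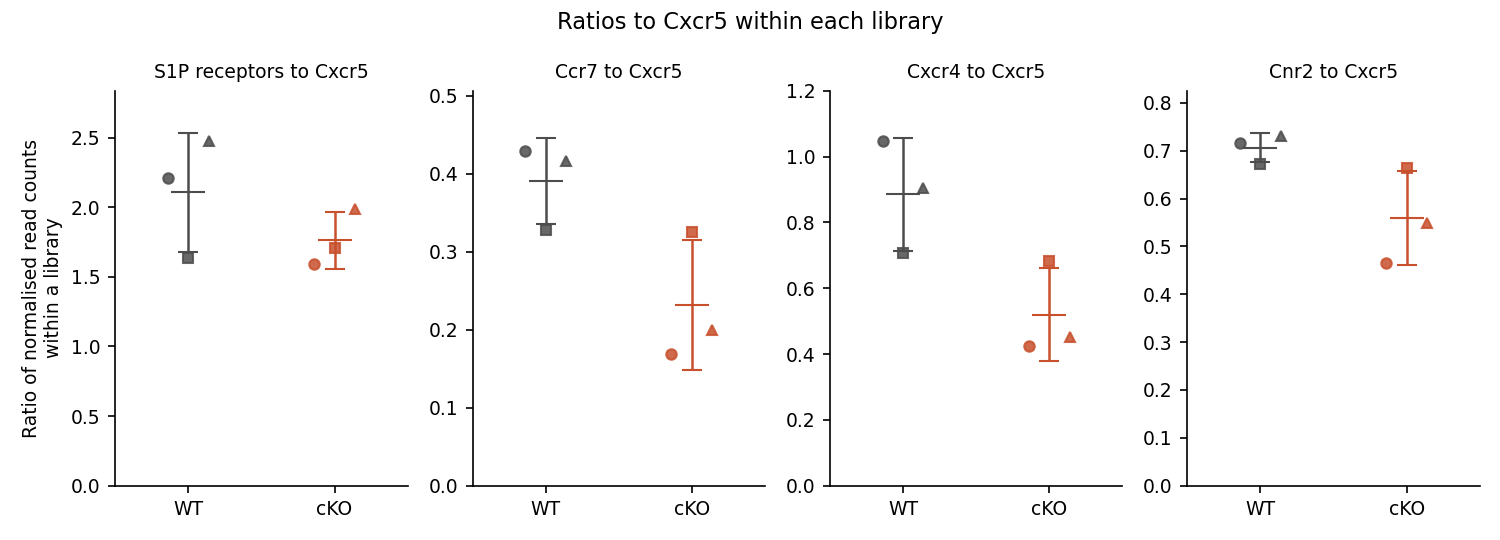
Ratio of normalised read counts within each library (y axis, from 0) of the summed S1P receptor genes, Ccr7, Cxcr4 and Cnr2 to Cxcr5. Points are libraries (circle, square and triangle for replicates 1, 2 and 3), bars the mean and SD over 3 libraries. The groups overlap for the S1P receptors and do not for the other 3 ratios, where cKO replicate 2 (square) is nearest to WT.

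Per kilobase of annotated exon, all 10 receptor genes were among the more abundant genes, each at or above 85.5% of the 14799 genes with a length. In WT the order of levels per kilobase was Cxcr4 (3691 ± 377), S1pr1 (3166 ± 525), Cxcr5 (2290.1 ± 224), Ccr7 (1495 ± 86.7), Cnr2 (1350.3 ± 85.5), S1pr3 (1119 ± 199), Ccr6 (811 ± 112), Gpr183 (715 ± 60.3), S1pr4 (531 ± 23.5) and Ackr2 (447 ± 27.8). The libraries of neighbours overlapped for Cxcr4 and S1pr1, Ccr7 and Cnr2, Cnr2 and S1pr3, S1pr3 and Ccr6, and Ccr6 and Gpr183. In cKO S1pr1 came first (3335 ± 466), then Cxcr5 (2736 ± 186) and Cxcr4 (2592 ± 528), and Ackr2 stood seventh (728 ± 141), ahead of Ccr6 (585 ± 70.0), Gpr183 (544 ± 61.5) and S1pr4 (474 ± 107). S1pr1 stood above Cxcr5 without overlap, while Cxcr5 overlapped Cxcr4, and Ackr2, Ccr6, Gpr183 and S1pr4 each overlapped the next. The exon length is the union over all annotated transcripts, so a level is understated where long exons are little used.

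The genes most like each called receptor gene over the 6 libraries, by the root mean square difference of their centred log2(value + 1) profiles among 9375 named genes, were as follows. Nearest to Cxcr4 were Cyp51, an enzyme of cholesterol synthesis (0.0437), Pard3b (0.0611) and the scaffold gene Homer3 (0.0614). Nearest to Ccr6 were Tm7sf2, another enzyme of cholesterol synthesis (0.0580), Jade3 (0.0667) and the selenium carrier gene Selenop (0.0789). Nearest to Ccr7 were Itgb7, the β7 integrin subunit gene of gut homing (0.0603), Sh3bp5 (0.0680) and Zfp608 (0.0819). Nearest to Gpr183 were Gpr180 (0.0462), Otulinl (0.0535) and Mtx3 (0.0548), and nearest to Ackr2 were Ighg3, a heavy chain constant gene (0.0462), Ffar2, a receptor for short-chain fatty acids (0.0787), and Rsu1 (0.0816). Of these genes, Pard3b, Homer3, Tm7sf2, Jade3, Itgb7 and Gpr180 were themselves not called (limma adjusted p from 0.0605 for Itgb7 to 0.150 for Jade3). The genes listed are the closest of many profiles over only 6 libraries, and no test was made of the likeness.

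The genes around these receptors were described by 6 lists, to be read against the 10.1% of all genes tested that were called. The share called was below that for the lists of other receptors, of ligands and of migration effectors, and above it for the other 3, with no test of either. Of the 28 measured members of a list of other chemoattractant and lipid receptors, 0 rose and 2 fell (median log2 difference -0.13). Ptger4, a prostaglandin E receptor gene, was at 602, 610.2 and 739 normalised reads in WT and at 323, 287 and 301 in cKO, without overlap (log2 difference -1.09 ± 0.10, adjusted p = 0.000289). Gpr174, a lysophosphatidylserine receptor gene, gave -0.22 ± 0.06 (adjusted p = 0.0440). Of 22 measured ligands and enzymes that make or break down ligands, 0 rose and 2 fell (median -0.03), the CC chemokine genes Ccl3 (-0.997 ± 0.22, adjusted p = 0.0217) and Ccl4 (-1.01 ± 0.28, adjusted p = 0.0437). Cxcl12, Cxcl13, Ccl19, Ccl21a and Ccl20, the ligand genes of the chemokine receptors above, are not among the genes tested. Gpr174 lost its call without any library other than cKO replicate 2 (adjusted p up to 0.151), Ccl3 without WT replicate 1 or 3 (up to 0.0933) and Ccl4 without any library other than WT replicate 2 or cKO replicate 3 (up to 0.176).

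Genes that dampen receptor signalling moved in both directions: of 18 measured, 3 rose and 5 fell (median -0.11). Arrb1, which encodes a β-arrestin that uncouples and internalises receptors, was at 1406, 1313 and 1312 in WT and at 761, 879 and 812 in cKO (log2 difference -0.72 ± 0.07, adjusted p = 0.000321). Arrb2, the other β-arrestin gene of the list, named only beside Arrb1, was not called. It was at 1533 ± 121 in WT and 1536 ± 44.9 in cKO (adjusted p = 0.969). Cd69, whose product removes S1PR1 from the cell surface, was at 6535, 5957 and 7082 in WT and at 3485, 3137 and 4761 in cKO (-0.80 ± 0.13, adjusted p = 0.00463). The groups overlapped for neither Arrb1 nor Cd69, and both of these genes were called in every alternative. Rgs10, a GTPase-activating protein for inhibitory G proteins, rose from 669 ± 88.1 to 1214 ± 142 (0.86 ± 0.11, adjusted p = 0.001175), and Rgs12 rose from 92.7 ± 2.80 to 171 ± 30.8 (0.86 ± 0.16, adjusted p = 0.0103; 0.0517 without cKO replicate 3). Other Rgs genes of the list, named only beside these, fell. They were Rgs1 (-0.70 ± 0.13, adjusted p = 0.0108), Rgs2 (-0.57 ± 0.13, adjusted p = 0.0231) and Rgs18 (-1.44 ± 0.31, adjusted p = 0.0175). Of 17 G protein genes 1 rose and 2 fell (median 0.01): Gng10 (0.42 ± 0.09), Gng12 (-1.40 ± 0.28) and Gna13 (-0.25 ± 0.07), the last of which encodes the subunit that confines B cells through RhoA. Each lost its call on leaving out WT replicate 1. So did Gng10 without cKO replicate 3, Gng12 without WT replicate 3, and Gna13 with edgeR or without any library other than cKO replicate 2, with adjusted p of up to 0.0620, 0.0660 and 0.149.

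Of 40 genes of migration effectors 2 rose and 1 fell (median 0.05), a smaller share than the 10.1% of all genes. Rasgrp2, the activator of Rap1 that lets integrins adhere, was at 9789, 8840.0 and 8339 in WT and at 5949, 7818 and 5977 in cKO (-0.46 ± 0.10, adjusted p = 0.0198). Arhgef6 (0.20 ± 0.05) and Rhog (0.24 ± 0.06), an exchange factor and a small GTPase of the actin cytoskeleton, rose. Rasgrp2 lost its call without WT replicate 1 or cKO replicate 3 (adjusted p up to 0.0861), Arhgef6 without any library other than cKO replicate 2 (up to 0.0958) and Rhog without any other than cKO replicate 3 (up to 0.106). Of 16 transcription factors of lymphocyte trafficking 0 rose and 5 fell (median -0.05). Klf2, an activator of S1pr1 in lymphocytes, was at 7089, 6406 and 7520.4 in WT and at 4804, 5851 and 4508 in cKO, without overlap (-0.48 ± 0.09, adjusted p = 0.0117), while S1pr1, as given above, was not called. Klf2 is also 1 of the 5 follicular markers and 1 of the 3 of them that fell, and here too cKO replicate 2 was nearest to WT. The part of the follicular marker shift in its fall was not tested. Foxo1 (-0.32 ± 0.07), the NF-κB subunit gene Rel (-0.44 ± 0.08) and Bcl6 (-0.97 ± 0.22), a repressor of Gpr183 in germinal centre B cells, fell as well. Rel was called in all 16 alternatives. Klf2 lost its call without WT replicate 1, WT replicate 3 or cKO replicate 3 (adjusted p up to 0.0627), Foxo1 without WT replicate 3 or cKO replicate 3 (up to 0.0785), and Bcl6 without WT replicate 1, WT replicate 3 or cKO replicate 3 and with robust moderation (up to 0.138).

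**Figure D5:**
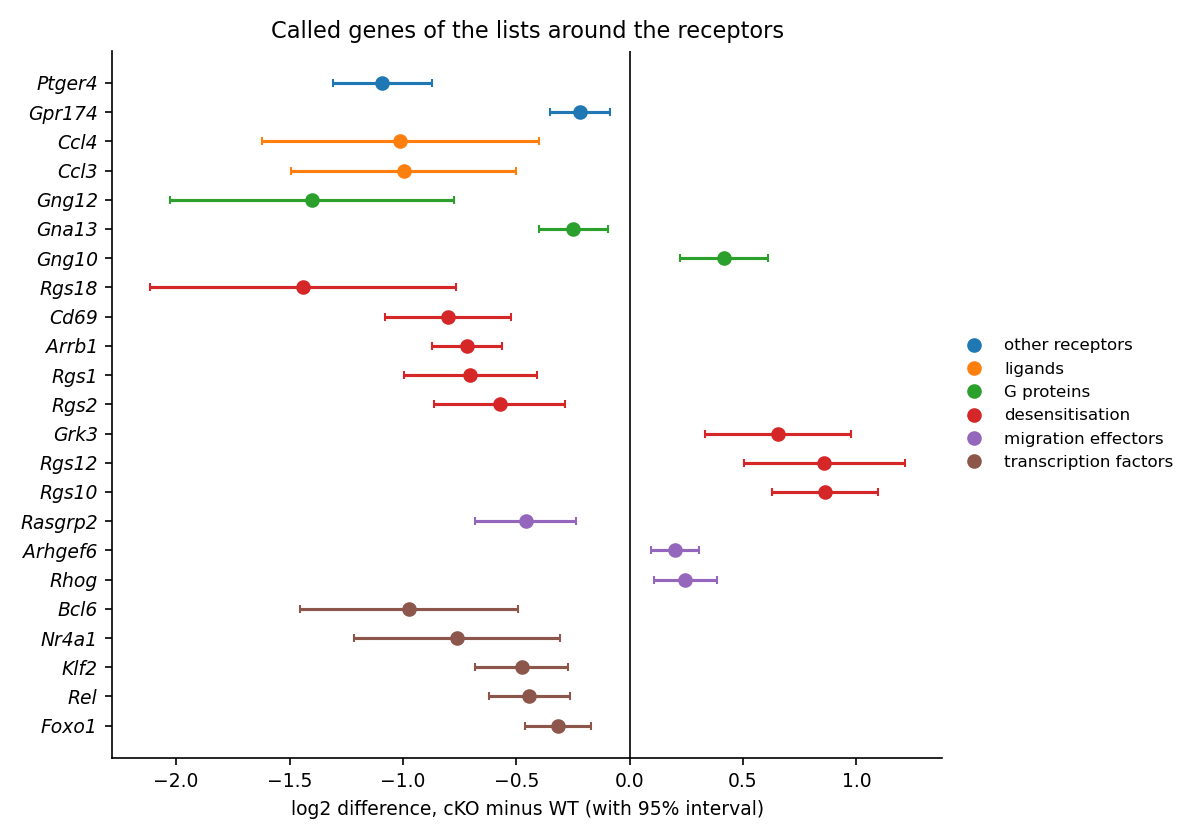
Log2 difference, cKO minus WT (x axis), with its 95% interval from limma, for the 23 called genes of the 6 lists around the receptors, coloured by list. Ptger4, Arrb1, Cd69, Klf2, Rgs1, Rgs2 and Rgs18 lie below 0 and Rgs10 and Rgs12 above it.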

How the data were processed

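RNA-seq was compared between 3 WT and 3 cKO libraries of sorted splenic marginal zone B cells. Build mm9 and the tools Trimmomatic 0.36, STAR 2.5.2b and bcl2fastq 2.17 stand in the submitters' processing notes. Not given in the sources used here: how reads were counted, by strand or not, against which annotation, and the normalisation tool. Per gene, the authors deposited a normalised signal, which by its values is a read count divided by a factor for each library: 100% of values in each library were whole multiples of the value of 1 read, within 0.02 of a read. The recovered reads gave the depth and the Poisson intervals, which cover counting error only. Identifiers without a name in GENCODE M21 held 0.103% of the reads.

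Differences were tested with limma-trend (limma 3.58.1, R 4.3.3) on log2(deposited value + 1). The model held genotype alone, was fitted to the 14855 genes with a mean of at least 10, and gave two-sided p-values, Benjamini-Hochberg adjusted over all of them, with a threshold of 0.05. "Rose" and "fell" are used for calls. edgeR 4.0.16 and DESeq2 1.42.0 ran on recovered reads as alternatives, beside other pseudocounts, filters and scalings, robust moderation of the variances in limma, the replicate number as a block and leaving out each library. The 10 receptor genes and the gene lists were chosen with earlier results of these data known. Named genes were the receptor genes, Csnk2a1, up to 4 called genes with the smallest adjusted p per list, up to 3 most abundant genes of the marker lists of B cell subsets, Cr2 of them printed, and the 3 genes most like each called receptor gene. One further marker gene is not reported here.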

Additional observations from a re-analysis of the deposited data

How the results depend on the processing

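Of 160 receptor gene values over 16 alternatives, 134 kept direction and side of the threshold, 17 lost the call, 5 gained it and 4 turned. Other pseudocounts, other filters, TMM and scaling without immunoglobulin genes kept 1 receptor gene higher and 4 lower. Robust moderation called 2 higher and 2 lower, with Cxcr5 at 0.26 gained and Cxcr4 at -0.52 and Ccr7 at -0.55 lost. It called 1615 of all genes, against 1494 in the main fit. DESeq2 called 2 higher and 2 lower, with Cxcr5 at 0.26 gained and Cxcr4 and Ccr7, both at -0.51, lost, and edgeR lost Ccr7 at -0.51. On leaving out 1 library, 1 to 2 receptor genes were called higher and 1 to 5 lower. The log2 differences then ran from -0.030 to 0.21 for S1pr1, -0.21 to 0.05 for S1pr3, -0.36 to -0.0704 for S1pr4, -0.69 to -0.44 for Cxcr4, 0.20 to 0.33 for Cxcr5, -0.56 to -0.36 for Ccr6, -0.77 to -0.39 for Ccr7 and -0.46 to -0.30 for Gpr183. S1pr1 turned without WT replicate 2 (-0.0074) and cKO replicate 3 (-0.030), and S1pr3 without WT replicate 3 (0.0505) and cKO replicate 2 (0.0504). Over all genes, the number called on leaving out 1 library ran from 496 without WT replicate 3 to 1725 without cKO replicate 2. It was 514 without WT replicate 1 and 524 without cKO replicate 3, so receptor genes lost calls where genes in general did. The cause of these changes was not tested. Replicate numbers appear in both groups, but deviations of same-numbered libraries correlated at -0.07, -0.02 and 0.147 over genes, and not every library correlated best with its own number. The replicate block called 1551 genes against 1494, and 1 receptor gene higher and 4 lower. The intervals of S1pr1, S1pr3, S1pr4 and Cnr2 include 0, which does not show that the groups are alike.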
